A study of Rattus norvegicus with 18 samples.

Results

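Hepatokines are proteins that the liver releases into the blood and that act on fat, muscle, brain or the liver itself. The genes described here were 8 symbols from this class: Nrg4, Tsku, Fgf21, Inhbe, Angptl8, Lect2, Fetub and Ahsg. Of these, 7 had a row under their symbol in a table of 33657 rat genes, and Ahsg had none, so it has no value here. Nrg4 and Tsku were chosen in part by their measured FPKM across the groups, so their values are a description with no test, while the other 5 were tested. Livers of male rats, labelled as 18 weeks old, gave 18 RNA sequencing libraries in 6 groups of 3. Healthy rats given water (normal control) and obese rats given water (obese control) were the references. Orlistat, a blocker of gut lipases and the positive control, was given to a further obese group, and plantain in 3 dose levels (low, medium, high) was fed to the remaining 3 obese groups. The sources used here do not give the amount in each dose, the strain, how obesity was brought about or whether the 3 libraries of a group came from separate animals. A p-value below therefore reflects library-to-library spread, part of which may be technical.

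As background, Nrg4 is a neuregulin with an EGF-like domain that signals through ErbB receptors and is best known as a product of brown fat that acts on liver. Tsku (Tsukushi) is a small leucine-rich proteoglycan secreted mainly by liver. Fgf21 is an endocrine fibroblast growth factor that needs the co-receptor Klb beside Fgfr1, and its gene is a classic target of the fasting receptor Ppara and of the stress factor Atf4. Inhbe encodes the activin E subunit, which acts on fat through the receptor Acvr1c. Angptl8 is induced by meals and takes part in the block of lipoprotein lipase (Lpl). Lect2 was found as a chemotaxin for white blood cells and binds the receptors Met and Tie1. Fetub and Ahsg are the fetuins, cystatin-related plasma proteins made by hepatocytes.

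The upstream sequences of the members whose promoters shared a short element are shown first, with that of Nrg4, whose level differed most between groups. They are the 250 bases before the start of the RefSeq gene in the GRCr8 build, 5′ to 3′ on the strand of the gene, and 7 of the 8 symbols had such an entry (Fetub is the exception). Capitals mark matches to 5 motifs, which were chosen after the sequences had been seen, searched on both strands. The stretches are chr1:105221377-105221626 (minus strand) for Fgf21, chr7:65064520-65064769 (minus strand) for Inhbe, chr8:28652305-28652554 (plus strand) for Angptl8 and chr8:64555174-64555423 (minus strand) for Nrg4.
Fgf21: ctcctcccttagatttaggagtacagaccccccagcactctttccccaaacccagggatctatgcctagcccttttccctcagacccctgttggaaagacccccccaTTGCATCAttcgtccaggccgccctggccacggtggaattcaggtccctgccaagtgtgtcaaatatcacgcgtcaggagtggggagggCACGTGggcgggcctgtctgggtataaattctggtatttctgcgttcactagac
Inhbe: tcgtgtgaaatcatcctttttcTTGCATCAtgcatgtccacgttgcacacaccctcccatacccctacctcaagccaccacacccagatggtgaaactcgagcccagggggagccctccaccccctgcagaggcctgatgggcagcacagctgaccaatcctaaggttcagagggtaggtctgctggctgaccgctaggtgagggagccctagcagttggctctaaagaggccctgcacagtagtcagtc
Angptl8: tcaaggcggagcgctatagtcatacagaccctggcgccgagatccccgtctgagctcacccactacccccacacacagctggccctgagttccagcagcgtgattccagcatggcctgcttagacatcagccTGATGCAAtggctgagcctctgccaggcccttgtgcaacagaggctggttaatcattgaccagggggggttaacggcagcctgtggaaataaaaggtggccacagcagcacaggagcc
Nrg4: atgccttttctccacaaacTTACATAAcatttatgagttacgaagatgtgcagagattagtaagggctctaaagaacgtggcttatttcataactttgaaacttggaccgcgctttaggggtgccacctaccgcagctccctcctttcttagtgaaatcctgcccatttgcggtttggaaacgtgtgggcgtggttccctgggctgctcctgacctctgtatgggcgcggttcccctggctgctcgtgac

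The capitals TTGCATCA in Fgf21 and Inhbe and TGATGCAA in Angptl8 are matches to TGATGNAA, the composite element of C/EBP and ATF factors, and those in Fgf21 and Inhbe lie on the opposite strand. They stood 143 to 136 bases before the start in Fgf21, 228 to 221 in Inhbe and 118 to 111 in Angptl8. Over the same window, 3.40% of 33469 rat promoters held this motif. CACGTG, the E-box, stood 54 to 49 bases before the start of Fgf21 and occurred in 5.59% of promoters. TTACATAA in Nrg4, 231 to 224 bases before the start, is the opposite-strand form of the D-box TTATGTAA, which 0.828% of promoters held. TAGGTCA (2.26% of promoters) and a direct repeat of AGGTCA with 1 free base between (0.0508%) were in none of the 7 windows. None of the motifs overlapped another there. A match describes these letters and is no evidence of binding.

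In the deposited table the members lie on 5 chromosomes, in coordinates of a rat build that the sources used here do not name. Fgf21 (ENSRNOG00000020990, chr1:101595579-101596822) and Tsku (ENSRNOG00000027784, chr1:163317282-163328591) are 61.7 Mb apart on the minus strand. Angptl8 (ENSRNOG00000011490, chr8:22856539-22858565, plus) and Nrg4 (ENSRNOG00000015149, chr8:59782974-59849490, minus) are 36.9 Mb apart. Inhbe (ENSRNOG00000007601, chr7:70640075-70643169, minus) has the next activin subunit gene, Inhbc, 3350 bases away with no gene between. Fetub (ENSRNOG00000001806, chr11:81648885-81660395, minus) sits 8933 bases from Hrg, and Lect2 (ENSRNOG00000012189) is at chr17:8489266-8495496 on the plus strand. All 7 are listed as protein coding. Nrg4 shares 3092 bases with Fbxo22 on the opposite strand and Angptl8 lies inside the span of Dock6, also opposite. The sources used here do not say whether reads were counted by strand, so overlapping reads cannot be told apart.

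Libraries held 16.6 to 26.2 M (mega) recovered reads or fragments, and FPKM (a read count divided by the library total and the gene length) is the unit of every level below. The total by which the authors had scaled each library came to 0.974 ± 0.005 of the recovered total for obese control libraries, 1.036 ± 0.012 for orlistat and 1.028 ± 0.003 for the high dose (SD, n = 3), so this factor moved with the groups. Mitochondrial transcripts took 8.11% of reads in the obese control and 4.64% at the high dose. All 12 hepatocyte markers were detected, and their sum per library differed between groups. It was 86030 to 91514 FPKM in the normal control, 97595 to 99897 in the obese control and 81028 to 86800 with orlistat. It lay within 90115 to 94856 FPKM at the low and the medium dose and 89425 to 89733 at the high dose. Any part of this shift in the hepatokine results was not tested. Differences are log2 differences of FPKM + 1 with a standard error (SE). They are called where limma, with Benjamini-Hochberg adjustment over the 11945 genes that reached 1 FPKM in 3 libraries, gave an adjusted p under 0.05. All 7 members with a row passed this filter, and by mean FPKM they ranked from 30 (Fetub) to 4811 (Nrg4) among the 33657 genes. The rescaling of each library to the same FPKM sum (TPM) moved the median of all tested genes by -0.11 in the obese control against the normal control, and, against the obese control, by 0.14 under orlistat and 0.15 under the high dose. It is named below where it ends a call. Of the 12 hepatocyte markers, 7 rose and 4 fell in the obese control. Against the obese control, 5 rose and 7 fell with orlistat, and 2 rose and 4 fell at the low dose. At the medium dose 3 rose and 8 fell, and at the high dose 3 rose and 7 fell. On TPM these splits were 4 and 5, 7 and 4, 5 and 4, 3 and 5, and 6 and 1 in that order. The shares of all tested genes given below with the receptors apply here too.

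Nrg4 had its lowest level in the untreated obese livers. The 3 normal control libraries held 19.02, 21.86 and 19.91 FPKM, and the 3 obese control libraries 1.02, 1.21 and 0.79, which rested on 15 to 27 reads each. The obese mean of 1.01 ± 0.21 was 4.98% of the normal mean of 20.3 ± 1.45 FPKM (SD, n = 3). All 4 treated groups lay between these 2 controls, and no treated library overlapped either. With orlistat the libraries held 8.01, 9.28 and 7.32 FPKM, and at the high dose 8.12, 8.72 and 8.03. At the low dose they held 5.21, 4.91 and 3.71 FPKM, and at the medium dose 4.95, 4.12 and 5.39.

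The group means of Nrg4 thus ordered as normal control, high dose (8.29), orlistat (8.20), medium dose (4.82), low dose (4.61) and obese control. High dose and orlistat overlapped, with a log2 difference of 0.02 (SE 0.11), and so did medium and low dose (0.06, SE 0.11). The other neighbours in that order did not overlap. As a log2 difference, the obese control was at -3.41 (SE 0.11) against the normal control. Against the obese control the value was 2.19 for orlistat, 1.48 for the low, 1.53 for the medium and 2.21 for the high dose (SE 0.11 each). With a pseudocount of 0.1 in place of 1 the obese control value became -4.21, since low levels weigh on this scale. Fbxo22, which shares bases with Nrg4, ran between 13.9 and 15.1 FPKM as a group mean in all 6 groups.

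Tsku also differed between the controls but did not follow Nrg4 across the doses. Its normal control libraries held 112.22, 110.13 and 108.28 FPKM and its obese control libraries 70.02, 68.89 and 66.0. With orlistat they held 96.35, 94.61 and 94.52 FPKM, and at the high dose 88.35, 88.1 and 88.74. The levels with orlistat and at the high dose were therefore above the obese control and below the normal control. At the low dose the libraries held 55.01, 55.54 and 52.77 FPKM, and at the medium dose 34.35, 34.85 and 36.71, all below the obese control. No 2 groups overlapped, and the means ordered as normal control (110.2), orlistat (95.2), high dose (88.4), obese control (68.3), low dose (54.4) and medium dose (35.3).

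On the log2 scale Tsku was at -0.68 in the obese against the normal control. Against the obese control it was at 0.47 for orlistat, -0.32 for the low, -0.93 for the medium and 0.37 for the high dose (SE 0.03 each). Between the medium and the low dose, where Nrg4 overlapped, Tsku differed by -0.61. The high dose stood 1.30 above the medium dose. Rescaling to TPM changed these values to -0.81, 0.64, -0.28, -0.85 and 0.55 with the same signs.

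**Figure D1:**
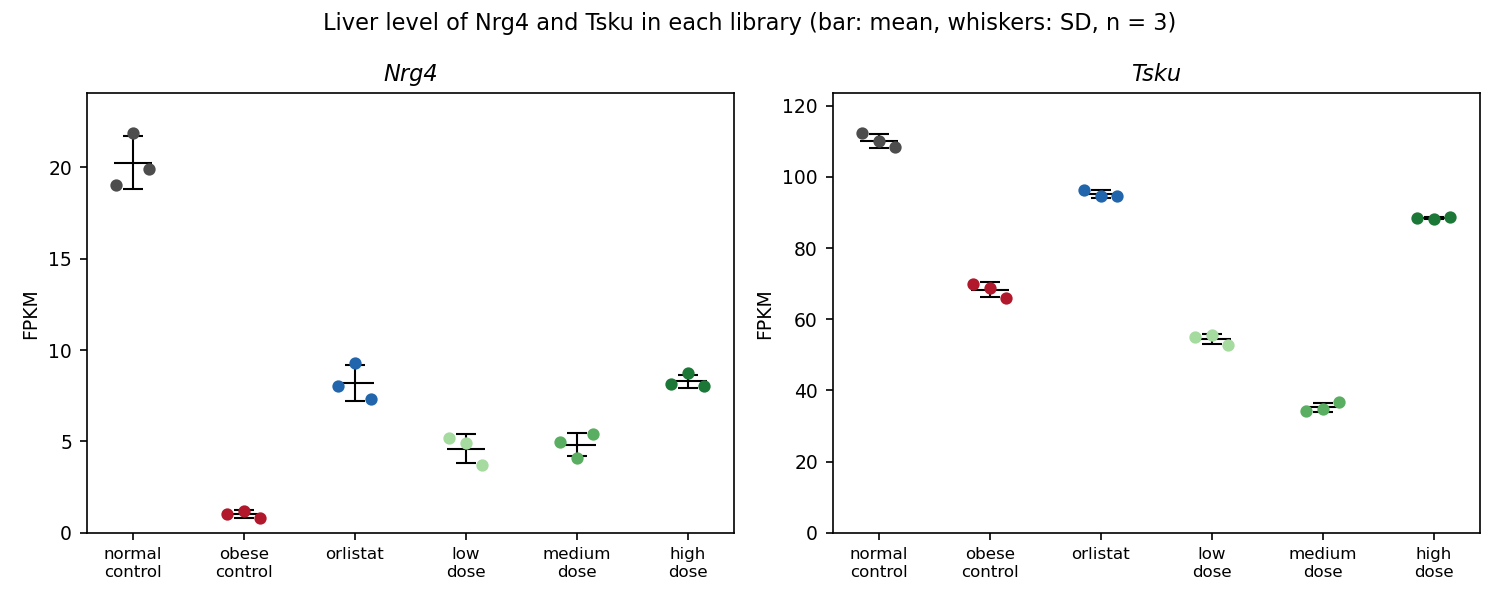
FPKM of Nrg4 (left) and Tsku (right) in each of the 18 libraries, by group; points are libraries, bars the mean and whiskers the SD (n = 3). Nrg4 in the obese control lies near 1 FPKM and every treated library lies between the controls, while Tsku is lowest at the medium dose, near 35 FPKM.

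Fgf21 was the most variable of the 5 tested hepatokines, with its highest group mean 6.08 times its lowest. The normal control libraries held 14.72, 13.24 and 13.54 FPKM and the obese control libraries 17.87, 18.27 and 20.89. Fgf21 rose in the obese control by 0.43 (SE 0.11, limma adjusted p = 0.00278). The orlistat libraries, at 4.67, 5.28 and 4.3 FPKM, were the lowest of all 18, and the difference from the obese control was -1.80 (adjusted p = 1.45e-09). The 3 plantain doses went different ways. The low-dose libraries, at 28.28, 29.58 and 28.82 FPKM, were the highest of all, and Fgf21 rose there against the obese control by 0.58 (adjusted p = 0.000509).

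At the medium dose Fgf21 stood at 14.53, 13.06 and 15.87 FPKM and at the high dose at 9.68, 7.65 and 11.34. It fell by 0.37 at the medium dose (limma adjusted p = 0.0106) and by 0.93 at the high dose (adjusted p = 2.48e-06). The call at the medium dose ended without obese control replicate 3 (-0.30, adjusted p = 0.0521) or without medium-dose replicate 2 (-0.30, adjusted p = 0.0524). High and low dose differed by -1.52 (adjusted p = 3.89e-08) and medium and low dose by -0.95 (adjusted p = 6.87e-06). In the order of the means, only medium dose (14.5) and normal control (13.8) were neighbours that did not pass the test (0.06, interval -0.17 to 0.29). Orlistat values rested on 57 to 62 reads per library.

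Inhbe, the activin E gene, changed little in size but was measured tightly. The normal control libraries held 63.78, 63.56 and 62.07 FPKM and the obese control libraries 78.1, 79.95 and 79.67, without overlap. Inhbe rose in the obese control by 0.32 (SE 0.02, limma adjusted p = 1.25e-09). With orlistat it stood at 67.29, 67.49 and 67.64 FPKM and at the high dose at 67.93, 69.42 and 69.68, all between the controls. It fell against the obese control by 0.23 with orlistat (adjusted p = 1.05e-07) and by 0.20 at the high dose (adjusted p = 5.99e-07). The difference between these 2 groups, 0.03, did not pass the test (interval -0.01 to 0.07).

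Low-dose libraries held 74.66, 75.59 and 74.43 FPKM of Inhbe and medium-dose libraries 82.73, 81.91 and 85.07, just below and just above the obese control. The low dose was lower by -0.08 (limma adjusted p = 0.00485) and the medium dose higher by 0.07 (adjusted p = 0.00921). These small differences depended on the scale: on TPM the calls at the low dose (-0.04, adjusted p = 0.264) and the high dose (-0.02, adjusted p = 0.514) ended. The medium-dose call ended without medium-dose replicate 3 (adjusted p = 0.0517) and with only these 2 groups in the fit (adjusted p = 0.0897).

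The other activin subunits showed a wider range than Inhbe. Inhbc, its neighbour on chromosome 7 and also made mainly in liver, rose from 20.9 ± 0.80 to 59.0 ± 1.04 FPKM in the obese control (1.45, limma adjusted p = 1.62e-15). Inhba, the activin A subunit, rose from 2.61 to 6.90 FPKM (1.13, adjusted p = 1.1e-09). Both fell with all 4 treatments. Inhbc fell by 0.79 with orlistat, 0.42 at the low, 0.41 at the medium and 0.62 at the high dose, and Inhba fell by 1.10, 0.85, 0.59 and 0.83. At the medium dose Inhbc and Inhba thus fell against the obese control, while the Inhbe rise there was small (0.07) and its call did not hold in every fit. Inha and Inhbb did not reach 0.26 FPKM in any library.

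Angptl8, the meal-induced lipase regulator, had its lowest level with orlistat and its highest at the medium dose. The normal control libraries held 49.88, 53.65 and 49.71 FPKM and the obese control libraries 62.03, 58.53 and 61.1. Angptl8 rose in the obese control by 0.24 (SE 0.06, limma adjusted p = 0.00174), a call that ended on TPM (0.12, adjusted p = 0.111). With orlistat the libraries held 23.9, 25.13 and 27.43 FPKM, below every other library, and the difference from the obese control was -1.22 (adjusted p = 7.19e-11). High-dose libraries, at 36.74, 39.16 and 33.53 FPKM, also lay below both controls, and Angptl8 fell there by 0.72 (adjusted p = 3.66e-08).

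Medium-dose libraries held 74.37, 75.83 and 76.71 FPKM of Angptl8, above every other library, a rise of 0.32 (limma adjusted p = 0.000287). Low-dose libraries held 55.17, 51.49 and 56.3 FPKM, which lay below the obese control without overlap and overlapped the normal control. The low-dose fall of 0.15 (adjusted p = 0.0442) was at the edge of the threshold. It ended on TPM (adjusted p = 0.177), after quantile normalization (0.129), without the filter on low values (0.0783), without the mean-variance trend (0.059) and with the replicate number as a block (0.0634). It also ended without obese control replicate 1 (0.127) or 3 (0.104), and without low-dose replicate 1 (0.0675) or 2 (0.17). Between high and medium dose the difference was -1.03 (adjusted p = 4.04e-09). Dock6, whose span holds Angptl8, had group means of 0.84 to 1.55 FPKM.

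Angptl4, a fasting-induced lipase inhibitor of the same family, fell in the obese control by 0.65 and fell further by 0.67 with orlistat, 0.32 at the low, 0.59 at the medium and 0.81 at the high dose. Lpl, the lipase that this family controls, is low in adult liver. It rose from 1.03 to 3.12 FPKM in the obese control (1.02, limma adjusted p = 2.32e-09) and fell to 1.69 FPKM at the low dose (-0.62, adjusted p = 2.43e-06). Lpl also fell by 0.28 at the medium dose and by 0.25 with orlistat, and the orlistat call ended on TPM.

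Lect2 was higher in the obese than in the normal liver and lower in 3 of the 4 treated groups. The normal control libraries held 76.72, 75.05 and 68.0 FPKM and the obese control libraries 100.35, 110.24 and 104.33. The rise was 0.51 (SE 0.06, limma adjusted p = 4.4e-06). With orlistat the libraries held 74.78, 70.04 and 75.2 FPKM, within the span of the normal control. Lect2 fell there by 0.51 against the obese control (adjusted p = 5.66e-06), and its difference from the normal control was 0.00 (interval -0.13 to 0.14). Low-dose libraries held 84.02, 84.32 and 80.39 FPKM and high-dose libraries 82.34, 90.83 and 76.5.

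Lect2 fell by 0.34 at the low dose (limma adjusted p = 0.000635) and by 0.33 at the high dose (adjusted p = 0.000365), and these 2 groups overlapped. At the medium dose the libraries held 103.31, 97.71 and 90.67 FPKM and overlapped the obese control, with a difference of -0.11 that did not pass the test (interval -0.24 to 0.02, adjusted p = 0.176). The medium dose was above the low dose by 0.23 (adjusted p = 0.016). Of the receptors that bind Lect2, Met fell in the obese control by 0.80 and rose in each treated group by 0.39 to 0.57. Tie1, an endothelial receptor, rose by 0.24 in the obese control and by a further 0.48 to 0.75 in the treated groups.

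Fetub, fetuin B, was by far the most abundant member and the only tested one without a called difference between the 2 controls. The normal control libraries held 2729.5, 2697.39 and 2742.8 FPKM and the obese control libraries 2653.51, 2690.61 and 2665.17. Their difference was -0.03 (SE 0.01, interval -0.06 to -0.00, limma adjusted p = 0.0739). It passed as a fall on TPM (-0.15), after quantile normalization (-0.31) and with voom on the recovered reads (-0.08). All treated libraries were lower than all control libraries. With orlistat they held 2113.27, 2132.57 and 2117.44 FPKM, and at the low dose 2218.21, 2199.53 and 2224.35.

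Medium-dose libraries held 2370.54, 2298.56 and 2303.32 FPKM of Fetub and high-dose libraries 1908.56, 1878.29 and 1906.25, the lowest of all. Fetub fell against the obese control by 0.33 with orlistat, 0.27 at the low, 0.20 at the medium and 0.49 at the high dose. The limma adjusted p-values were 1.24e-11, 3.5e-10, 6.81e-09 and 2.15e-13 in that order. After quantile normalization the medium-dose call ended (-0.05, adjusted p = 0.302). All neighbours in the order of the means passed the test except the 2 controls.

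Hrg, a histidine-rich plasma protein of the same cystatin group, rose in the obese control by 0.11 and at the medium dose by 0.14, and fell with orlistat by 0.16. Its fall of 0.09 at the high dose became a rise of 0.09 on TPM and did not pass with quantile normalization or voom, and its calls in the obese control and with orlistat ended on TPM. Kng1, the kininogen gene 204264 bases away, rose from 461 ± 7.4 to 940 ± 13.5 FPKM at the low dose (1.03, limma adjusted p = 1.77e-13). It also rose in the obese control by 0.54 and with orlistat by 0.37, and its medium-dose and high-dose values are not reported here. A row named only AABR07034632.1 (ENSRNOG00000038370, chr11:81707804-81735592) lies between Fetub and Dnajb11, the place where RefSeq's gene order, in another build, lists Ahsg. The table does not pair the 2 names, so its identity was not established. Chosen after its values were seen, this row had lower means in the 4 treated groups than in both controls, with means of 3895 in the normal control, 4388 in the obese control, 3492 with orlistat and 3602, 3555 and 3685 FPKM at the low, medium and high dose.

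**Figure D2:**
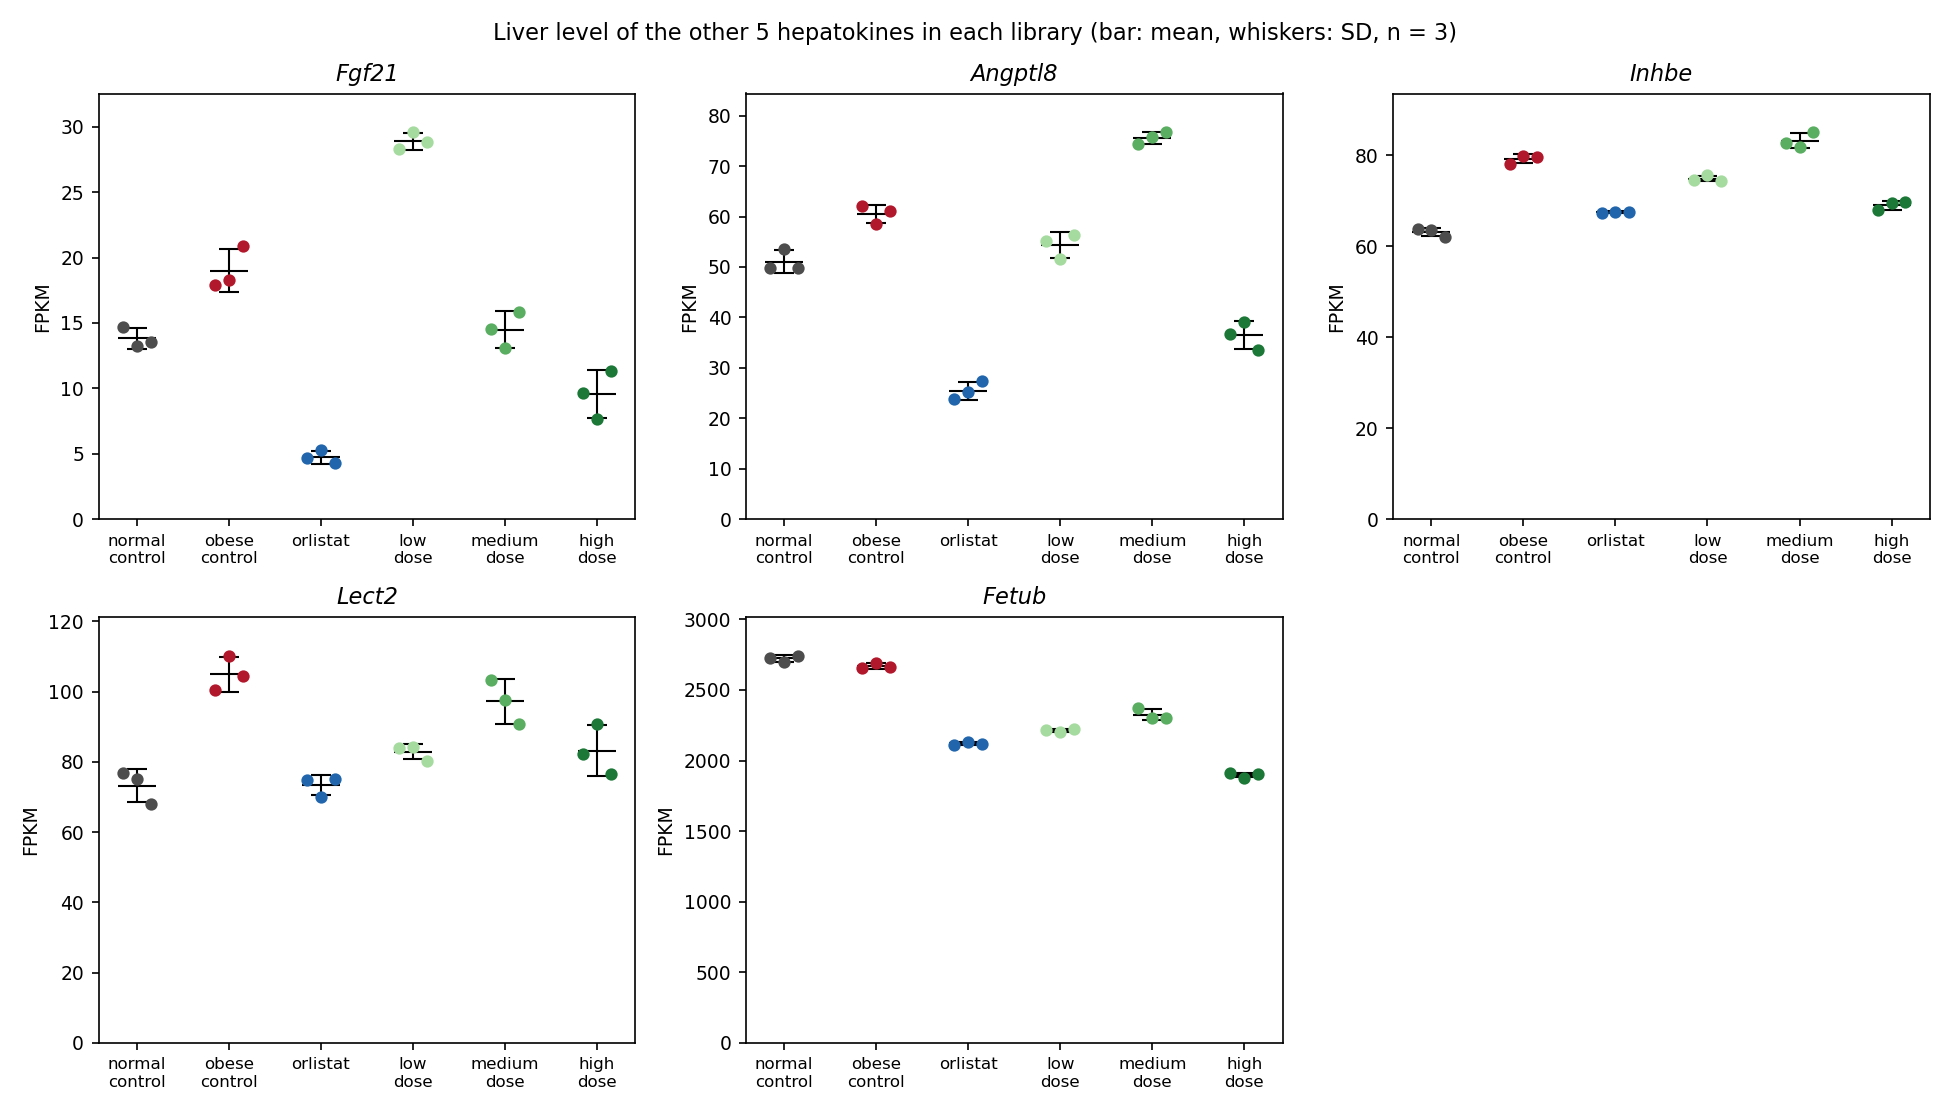
FPKM of the 5 tested hepatokines in each library, by group; points are libraries, bars the mean and whiskers the SD (n = 3), and every axis starts at 0. Fgf21 is highest at the low dose and Angptl8 and Inhbe at the medium dose, orlistat libraries are lowest for Fgf21 and Angptl8, and Fetub is lowest at the high dose.

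Set beside one another, the tested members gave the following counts. All 5 differed among the 6 groups by the limma F test, which 72.1% of all tested genes also passed. In the obese against the normal control 4 rose (Fgf21, Inhbe, Angptl8 and Lect2) and none fell, where 26.7% of all genes were called higher and 28.4% lower. The median difference of the 5 was 0.32, against -0.00 over all tested genes. On TPM, 3 rose and Fetub fell, and with quantile normalization or voom 4 rose and Fetub fell. With orlistat all 5 fell, where 25.6% of genes were called lower (median -0.51 for the 5, -0.01 for all genes). At the high dose all 5 fell as well, against 25.3% of genes (median -0.49), and on TPM 4 of them did.

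At the low dose 1 rose (Fgf21) and 4 fell, where 18.3% of genes were called higher and 14.8% lower. On TPM only Fetub and Lect2 fell there. At the medium dose 2 rose (Inhbe and Angptl8) and 2 fell (Fgf21 and Fetub), where 21.8% of genes were called higher and 20.1% lower. The medium-dose calls of Inhbe, Fgf21 and Fetub ended under some alternatives, as given above. The 4 treatments share the obese control libraries, so these counts are not independent of one another.

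The other pairs of groups set the treatments against the normal control and against one another. Against the normal control, orlistat had 1 member higher (Inhbe) and 3 lower (Fgf21, Angptl8 and Fetub), where 44.1% of genes were called in either direction. The low dose had 3 higher and 1 lower (47.8% of genes), the medium dose 3 higher and 1 lower (45.3%) and the high dose 2 higher and 3 lower (42.4%). Fetub was lower in all 4 of these. Against orlistat, all 5 were higher at the low dose (36.8% of genes called) and at the medium dose (26.9%). The high dose, which was nearest to orlistat over all genes (15.1% called), had Fgf21 (0.86, limma adjusted p = 3.07e-05) and Angptl8 (0.50, adjusted p = 1.15e-05) higher and Fetub lower (-0.16, adjusted p = 3.32e-07). Lect2 did not pass there (0.18, interval 0.04 to 0.31, adjusted p = 0.0718). Among the doses, all 5 differed between medium and low (23.0% of genes) and all 5 were lower at the high than at the medium dose (20.3%), while 4 were lower at the high than at the low dose (32.7%).

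**Figure D3:**
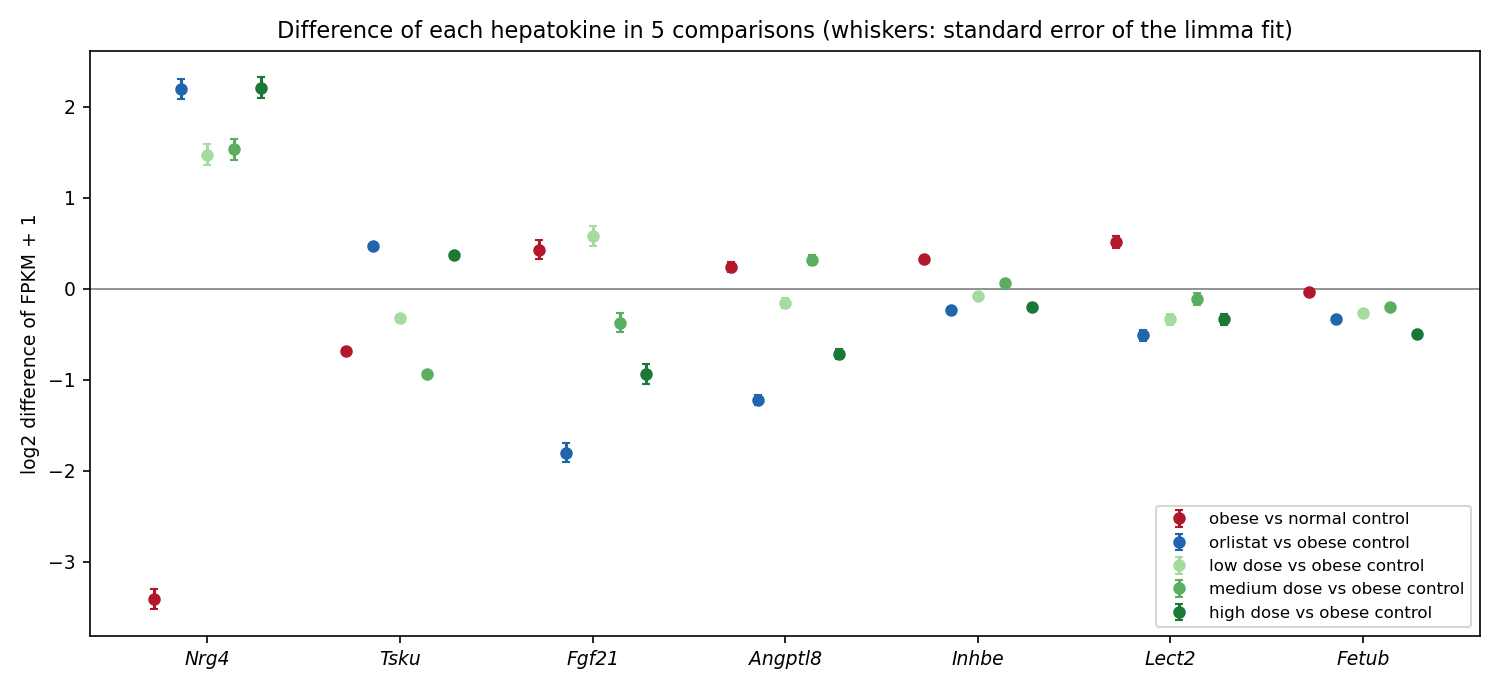
Log2 difference of FPKM + 1 for each of the 7 hepatokines in 5 comparisons; whiskers show the standard error from limma, and Nrg4 and Tsku carry no test. Nrg4 runs from -3.41 in the obese control to 2.21 at the high dose, Angptl8 and Fgf21 reach -1.22 and -1.80 with orlistat, and Fetub lies below 0 in every comparison.

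The receptors and binding partners of these proteins were mostly lower in the obese liver and higher after treatment. There were 21 such genes with a row, of which 18 were tested. In the obese control 4 rose and 11 fell (median -0.29). With orlistat 13 rose and 1 fell (0.30), at the low and the medium dose 12 rose and 2 fell (0.17 and 0.26), and at the high dose 12 rose and none fell (0.26). Medians over all tested genes were -0.01 to 0.01. The shares of all tested genes called higher and lower, which also apply to the lists below, were 26.7% and 28.4% in the obese control, 26.2% and 25.6% with orlistat, 18.3% and 14.8% at the low dose, 21.8% and 20.1% at the medium dose and 26.6% and 25.3% at the high dose. Erbb3, a neuregulin receptor, fell from 34.9 ± 1.19 to 22.3 ± 0.87 FPKM in the obese control (-0.63, limma adjusted p = 6.67e-10) and rose by 0.35 with orlistat and by 0.53, 0.43 and 0.39 at the low, medium and high dose. Egfr, the receptor for EGF itself, fell from 67.4 to 23.5 FPKM (-1.48, adjusted p = 1.4e-12) and rose in the treated groups by 0.56 to 0.96.

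Erbb4, the other neuregulin receptor, did not exceed 0.0381 FPKM in any library. Among activin receptors, Acvr1b fell by 0.32 in the obese control and rose in all treated groups by 0.30 to 0.43. Acvr1c, the receptor described for activin E in fat, had group means of only 1.29 to 1.80 FPKM in liver. Fgfr1, the receptor form used by Fgf21, was also low (1.05 to 2.22 FPKM) and rose in all 5 comparisons, by 0.25 to 0.33, while Fgfr4, the main form of hepatocytes, had means of 14.2 to 15.6 FPKM and was called only at the medium dose (0.09, limma adjusted p = 0.0483), a call that ended after quantile normalization. Insr, the insulin receptor, fell by 0.49 in the obese control and rose by 0.29 to 0.57 in the treated groups. Acvr1b, Fgfr1 and Fgfr4 were named after their values were seen.

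**Figure D4:**
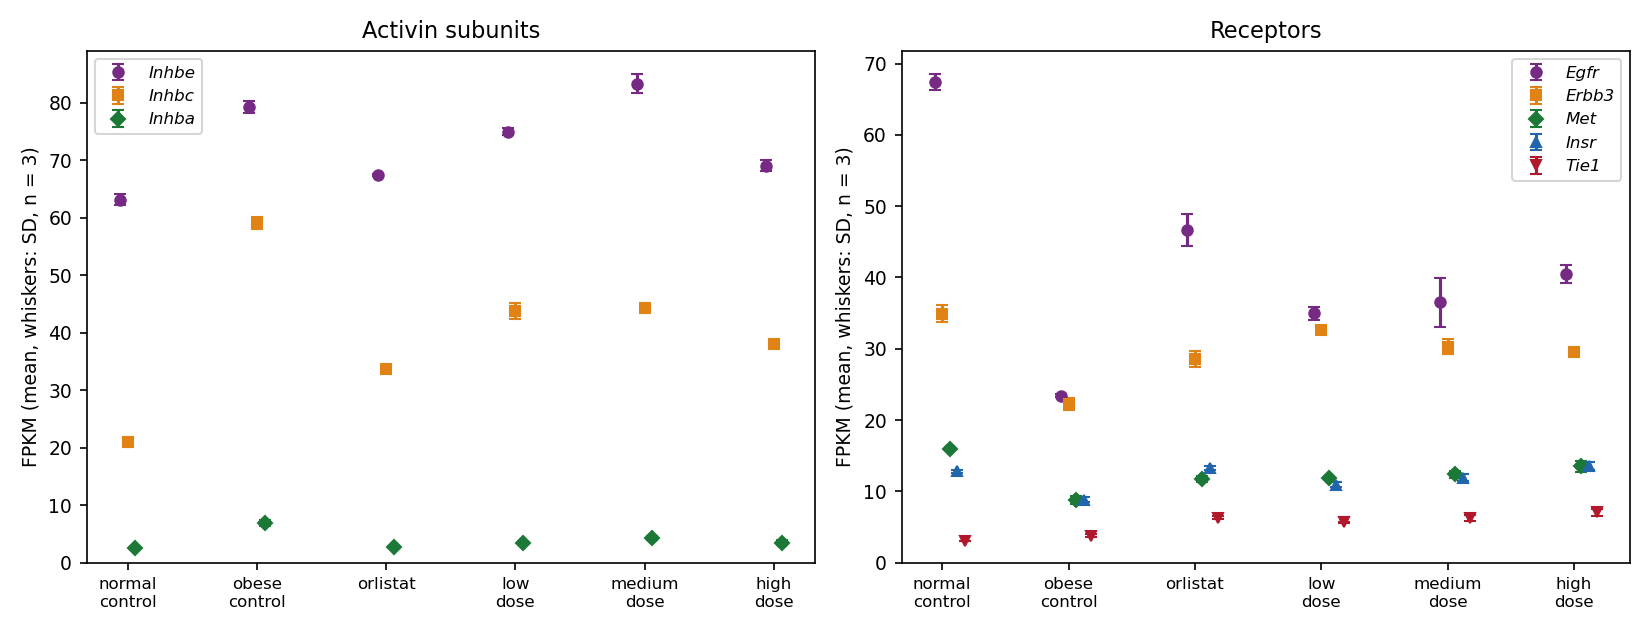
Group means of FPKM for 3 activin subunit genes (left) and 5 receptor genes (right); whiskers are the SD (n = 3). Inhbc goes from 20.9 in the normal control to 59.0 FPKM in the obese control, and Egfr, Erbb3, Met and Insr are each lowest in the obese control.

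Regulators known to act on hepatokine genes also changed. There were 22 with a row, of which 21 were tested. Of these, 4 rose and 14 fell in the obese control (median -0.30), 9 rose and 8 fell with orlistat (0.06), 12 rose and 2 fell at the low dose (0.15), 7 rose and 5 fell at the medium dose (0.05), and 11 rose and 6 fell at the high dose (0.14). On TPM 3 rose and 16 fell in the obese control, 10 rose and 3 fell with orlistat, 13 rose and 2 fell at the low dose, 10 rose and 2 fell at the medium dose, and 16 rose and 3 fell at the high dose. Nr1d1 (Rev-erb alpha), a clock repressor, fell by 1.12 with orlistat and by 0.59 at the high dose, the groups where Fgf21 was lowest. Its means were 34.4 FPKM in the normal control, 25.5 in the obese control, where Fgf21 was higher, and 11.2 with orlistat. At the low, medium and high dose they were 29.0, 22.7 and 16.6 FPKM, and a link to Fgf21 was not tested. Bhlhe40, a clock-linked repressor, fell by 1.58 in the obese control and rose by 0.26 to 0.67 in the treated groups. Nr1d2, the paralog of Nr1d1, fell by 1.00 and then rose by 0.26 to 0.45. Xbp1, a factor of the unfolded protein response, fell by 1.18 in the obese control. Against the obese control Xbp1 rose by 0.28 at the low and 0.57 at the high dose. It fell by 0.24 with orlistat, a call that ended on TPM, and its medium-dose value is not reported here.

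Values of factors known to act on Fgf21 follow, for genes named after their values were seen. They are mRNA levels, and a link between any of them and the Fgf21 differences was not tested. Ppara fell by 0.86 in the obese control (limma adjusted p = 3.06e-08), where Fgf21 rose, and rose with orlistat (0.51) and at the high dose (0.67), where Fgf21 fell. At the low dose both rose (Ppara by 0.32), and the medium-dose value of Ppara is not reported here. Atf4 fell by 0.14 in the obese control, and against it by 0.18 (orlistat), 0.15 (medium dose) and 0.16 (high dose), and rose by 0.15 at the low dose. On TPM its 3 falls under treatment did not pass the test. Atf3, a stress-induced partner of Atf4, rose at the low dose from 0.60 to 1.67 FPKM (0.73, adjusted p = 1.14e-05). Ddit3 (CHOP), which binds the composite element with C/EBP proteins, rose by 0.33 in the obese control and fell by 0.42, 0.25, 0.27 and 0.50 with orlistat and at the 3 doses in order.

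Other proteins secreted by the liver were mixed in direction. There were 29 with a row, of which 24 were tested. Of these, 14 rose and 8 fell in the obese control (median 0.16), 8 rose and 9 fell with orlistat (0.00), 13 rose and 8 fell at the low dose (0.15), 5 rose and 12 fell at the medium dose (-0.12), and 4 rose and 10 fell at the high dose (-0.08). This split depended on the scale: on TPM 11 rose and 9 fell in the obese control, 14 rose and 5 fell with orlistat, 13 rose and 7 fell at the low dose, 9 rose and 7 fell at the medium dose, and 12 rose and 6 fell at the high dose. Manf, a secreted factor of the endoplasmic reticulum stress response, rose from 109 to 184 FPKM in the obese control (0.76, limma adjusted p = 4.2e-11). It fell with every treatment, to 73.0 FPKM at the high dose (-1.33, adjusted p = 2.15e-13). Fgl1, a hepatocyte factor, rose by 1.05 in the obese control and by a further 0.42 at the low dose.

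Smoc1, a glucose-responsive hepatokine, fell by 0.27 in the obese control and rose by 0.50 to 0.73 in the treated groups. Selenop, the selenium carrier, fell by 0.22 and rose by 0.22 to 0.56. Hamp (hepcidin), the iron hormone, fell by 0.62 and rose by 0.70 at the low dose. Igfbp1, an insulin-repressed binding protein, rose by 0.75 at the low dose and fell by 0.87 at the medium and 0.51 at the high dose. Among 20 tested relatives of the members' own families, 11 rose and 4 fell in the obese control (median 0.15), 5 rose and 7 fell with orlistat, 7 rose and 8 fell at the low dose, 6 rose and 7 fell at the medium dose, and 6 rose and 8 fell at the high dose. On TPM the splits were 8 and 5, 7 and 5, 8 and 8, 8 and 5, and 10 and 4 in that order.

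The genes whose pattern over the 18 libraries was most like that of a member were found by the root mean square difference of centred log2 values, for the 4 members whose group means spanned at least 1 on that scale. For Nrg4 these were Upp2 (0.33), a uridine phosphorylase of liver, the clock gene Per3 (0.46), and Timeless (0.47). The median over all tested genes was 1.05. Upp2 went from 56.4 ± 2.33 FPKM in the normal control to 6.76 ± 0.54 in the obese control and to 13.3 to 19.7 as treated means. For Tsku they were Per1 (0.22), a core clock repressor, Zfp189 (0.27) and Cib2 (0.28), against a median of 0.57. Per1 had its lowest mean, 5.20 ± 0.19 FPKM, at the medium dose, as Tsku had, and its highest, 13.1 ± 0.26, in the normal control. Unlike Tsku, Zfp189 at the high dose (mean 4.58 FPKM) was not above the obese control (4.78). Nor was Cib2 with orlistat (1.97 against 2.08 FPKM), and its medium-dose mean was only 0.80 FPKM.

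For Fgf21 the closest genes were Wfdc2 (0.39), Osgin1 (0.42) and Nr1d1 (0.44), against a median of 0.77. Wfdc2 and Osgin1 were highest at the low dose, with means of 65.8 and 112.9 FPKM, and lowest with orlistat, at 11.8 and 46.2 FPKM. Osgin1 (0.28) was also among the closest to Angptl8, with AABR07060872.1 (0.28) and an unnamed locus (0.26), against a median of 0.53. A gene that did not change would stand at the member's own root mean square, which was near the median in each case. That value was 1.03 for Nrg4, 0.55 for Tsku, 0.75 for Fgf21 and 0.50 for Angptl8. These likenesses describe the same 18 libraries that share depth and scaling, and they carry no test.

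**Figure D5:**
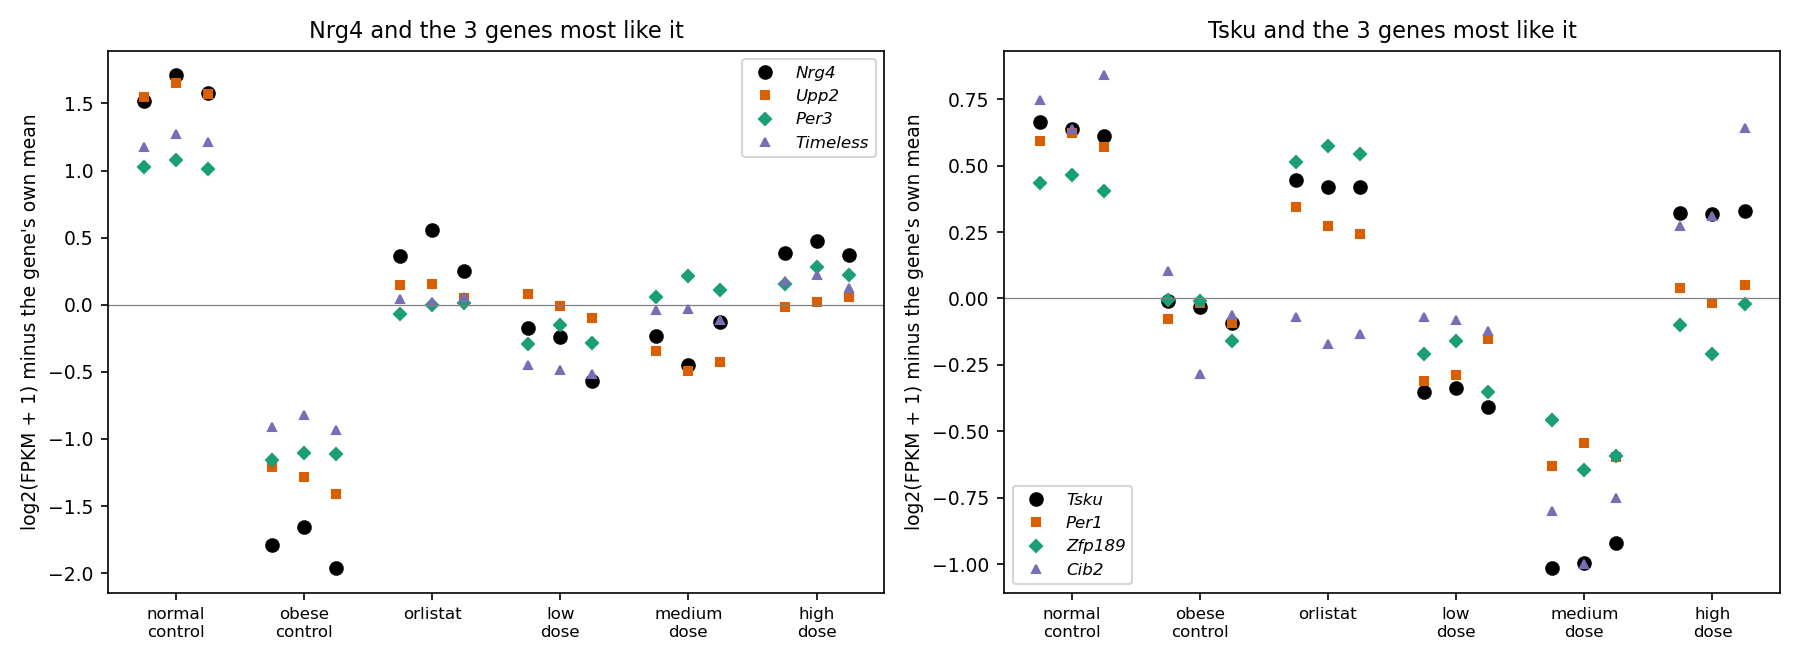
Log2 of FPKM + 1 minus the gene's own mean over 18 libraries, for Nrg4 (left) and Tsku (right) with the 3 genes closest to each; every point is a library. The genes closest to Nrg4 share its high normal control and low obese control, and those closest to Tsku share its low medium dose.

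Markers of other liver cells moved between the groups as well, and in bulk tissue fewer cells of a type and less RNA per cell cannot be told apart. The 9 sinusoidal endothelium markers summed to 52.0 to 53.4 FPKM in the normal control and 70.5 to 71.1 in the obese control. They summed to 108 to 109 FPKM with orlistat and 121 to 123 at the high dose. At the low and the medium dose the sums were 102.5 to 103.5 and 103.1 to 105.2 FPKM. With each treatment 8 of 9 rose. With orlistat the remaining marker, Clec4g, fell (-0.31), a call that ended on TPM. Tie1 moved with the sum. The 11 Kupffer cell markers summed to 189 to 190 FPKM in the normal control, 317 to 327 in the obese control, 331 to 351 with orlistat, 402 to 413 at the low dose, 262 to 270 at the medium dose and 267 to 272 at the high dose. All 11 rose in the obese control, 3 rose and 1 fell with orlistat, 10 rose at the low dose, 10 fell at the medium dose and 9 fell at the high dose. On TPM 7 rose with orlistat, 8 fell at the medium dose, and 1 rose and 5 fell at the high dose. The 10 stellate cell markers summed to 54.7 to 74.3 FPKM over all libraries, and bile duct markers to 7.67 to 10.3. The 7 exocrine pancreas markers summed to 8.52 to 14.1 FPKM, with 13.7 to 14.1 in the obese control and at most 11.7 in the other groups. The 8 fat cell markers summed to 12.5 to 14.6 FPKM in the normal control, 23.5 to 24.2 in the obese control and 33.8 to 34.9 at the low dose. In the remaining groups the sums lay within 23.8 to 30.2 FPKM. The 3 tested fat cell markers all rose in the obese control, 2 of them on TPM, and all rose again at the low dose. Of the 8, Lep and Ucp1 were listed at 0 in every library and Adipoq did not exceed 0.0261 FPKM. The part of these shifts in the hepatokine results was not tested.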

How the data were processed

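Liver RNA was sequenced from 18 samples in 6 groups of 3, grouped by the labels. Per the labels' protocols, 1 µg of RNA per sample entered an Illumina library kit. CASAVA 1.7, Bowtie 0.12.2 and mm8, a mouse build, are named in the submitters' processing notes, while the identifiers are those of rat. The sources used here do not name the rat build or annotation. The authors deposited 1 table of FPKM values per gene and library. FPKM times gene length gave whole reads for 100% of values (tolerance 0.001), so 16.6 to 26.2 M (mega) reads or fragments per library were recovered. This depth limits low genes such as Nrg4 in the obese control.

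Genes that reached 1 FPKM in 3 or more samples (11945, of which 10655 are protein coding) were compared on log2(FPKM + 1) with limma 3.58.1 (R 4.3.3). There was 1 fit of 6 groups with a mean-variance trend, and all 15 pairs were two-sided contrasts with Benjamini-Hochberg adjustment over all tested genes, threshold 0.05. An exact permutation test of 3 against 3 libraries cannot go below p = 0.1. The procedure was also run on simulated reads with changes set in the orlistat group only. That run does not bear on the scaling or on what the replicates were. Intervals are 95% limits of the fit. The members and lists were chosen with earlier results of these data known. From each list, up to 4 genes per comparison with the smallest adjusted p were named (a few are not reported here), and the 3 genes closest to a member by root mean square difference. Alternatives were a pseudocount of 0.1, no filter, TPM, quantile normalization, no variance trend, 2 groups only, voom on recovered reads, a replicate block and leaving out each replicate.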

Additional observations from a re-analysis of the deposited data

How the results depend on the processing

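No member changed direction between the obese and the normal control or between a treatment and the obese control under any alternative run. With 1 replicate left out, 203 differences kept their side of the threshold (or, without a test, moved by less than 1 SD) and 7 lost a call. Under the other alternatives 242 did so, 10 lost a call and 3 gained one. Values that ended a call stand beside the result in the text. The 25 other shifts were of Nrg4 and Tsku, which carry no test. Nrg4 in the obese against the normal control was -3.41, and -3.82 on TPM and -4.34 with voom.

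The number of genes called over the whole table was within 1.5 times under every alternative, but the split by direction moved. Higher and lower calls were 3191 and 3387 in the obese against the normal control, 3133 and 3055 with orlistat, and 2183 and 1764, 2599 and 2404, and 3181 and 3018 at the low, medium and high dose. On TPM they were 1973 and 4569, 4989 and 1566, 2675 and 1302, 3748 and 1440, and 5176 and 1476. With voom on recovered reads they were 2775 and 3981, 4095 and 2137, 2256 and 1741, 3285 and 1812, and 4006 and 2124. Replicate numbers did not pair the samples: deviations of same-numbered libraries correlated at -0.0925 to 0.0607. With the replicate block 6529, 6076, 3868, 4945 and 6113 genes were called in the same order, and 1 member call ended, that of Angptl8 at the low dose.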
